A study of Mus musculus with 6 samples.

Results

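The genes described here encode the MHC class II antigen presentation pathway, in lymphatic endothelial cells (LEC) from a mouse tumour and from normal skin. The 8 genes were listed by name and by role. They are the chains H2-Aa, H2-Ab1 and H2-Eb1, the peptide exchange factor H2-DMa and H2-DMb1, the invariant chain Cd74, the regulator Ciita and the protease Ctss. Of the 8, 7 have at least 1 probe set of their own, among 18193 genes that the Affymetrix arrays measure in this way. H2-DMb1 is measured only through probe sets shared with its paralogue H2-DMb2. Each gene was read from its probe set with the highest mean over the 6 arrays.

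The study has 3 arrays of each group, all from C57BL/6 mice. Tumour LEC came from fibrosarcomas that T241 cells carrying VEGF-C and GFP formed in the mice, and normal LEC from the tail dermis of 8-week-old females. Cells of both groups were cultured in an endothelial medium and selected with LYVE-1 antibodies, although the text on the tumour cells runs into that on skin. Titles of the tumour arrays name tumour cells, while the source text names LEC, which is followed here. The labels give neither the age nor the sex of the tumour-bearing mice, and nothing says whether replicates were separate animals or cultures. The p-values therefore measure the spread between these arrays, which may be technical.

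MHC class II molecules are pairs of an alpha and a beta chain that show peptides from engulfed proteins to CD4 T cells. Newly made pairs are held by the invariant chain, which endosomal proteases trim, and the H2-DM pair then exchanges its last fragment for a peptide. The chains, the invariant chain and H2-DM are switched on by CIITA, a co-activator that interferon gamma induces in endothelium and other cells that do not present antigen by profession. Lymphatic endothelium is known to carry class II proteins at low levels, made by the cell itself or acquired from dendritic cells. C57BL/6 mice make no I-E protein, because the gene of its alpha chain carries a deletion, so H2-Eb1 in this strain has no partner chain.

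RefSeq promoter windows (GRCm38.p6) of the class II genes were searched for letters of the sites known for CIITA. Its partners bind the X box and the Y box, which lie at a fixed spacing just before the start of a class II gene. The letters CTNNNAAC, part of the X box, followed after 15 to 35 bases by ATTGG, the Y box, were searched on both strands, a pattern chosen after the sequences were seen. They occur in 0.901% of 32851 windows of 300 bases. Windows exist for 5 of the 8 genes, H2-Aa, H2-Eb1, H2-DMa, H2-DMb1 and Ctss, and for H2-DMb2. The stretches below lie before the start site on the gene's own strand, with the matched letters in capitals, at chr17:34287859-34287915 (minus strand) for H2-Aa and, on the plus strand, chr17:34305765-34305820 for H2-Eb1, chr17:34153086-34153142 for H2-DMb1 and chr17:34145115-34145171 for H2-DMb2.
H2-Aa: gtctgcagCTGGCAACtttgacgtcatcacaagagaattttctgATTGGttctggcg
H2-Eb1: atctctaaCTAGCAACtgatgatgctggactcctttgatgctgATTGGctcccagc
H2-DMb1: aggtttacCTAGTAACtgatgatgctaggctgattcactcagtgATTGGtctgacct
H2-DMb2: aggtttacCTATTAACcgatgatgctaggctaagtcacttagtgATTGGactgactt

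The spacer between the letters is 27 bases in H2-Eb1 and 28 in the other 3. Neither window of H2-DMa nor that of Ctss holds the pattern. The window of Ctss holds a different one, GAAA followed after any 2 bases by GAAA, the core of the element that interferon regulatory factors bind, also searched on both strands and found in 3.44% of the windows. A match is a description of the letters and not of binding. It lies 21 bases before the start, at chr3:95526757-95526782 on the plus strand, and is shown with its letters in capitals.
Ctss: ctttaaatGAAACCGAAAtgaaagtt

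Of the genes with probe sets of their own, all but Ctss were dim, and their values must be read against the background. The limit of an array was set at the brightest of 27 control probe sets, which match bacterial RNA not added to the samples. It was 3.48, 3.53 and 3.71 on the log2 scale in tumour replicates 1, 2 and 3, and 3.40, 3.47 and 3.42 in normal replicates 1, 2 and 3. Tumour replicate 3 thus had the highest background. Dim values follow it: of 7063 genes at or below the limit on all arrays, 76.6% read higher on all tumour arrays than on any normal array. For genes above the limit on some array that share was 13.8%. A complete separation of the groups therefore says little for a dim gene.

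H2-Eb1, the beta chain of I-E, was the only one of the 3 listed chains above the limit on all 6 arrays. Its log2 values were 3.81, 5.10 and 5.03 in tumour replicates 1, 2 and 3 and 3.55, 3.74 and 3.46 in normal replicates 1, 2 and 3. The groups did not overlap, but tumour replicate 1 lay just above the highest normal array, and normal values exceeded the limit by 0.035 to 0.26. The means were 4.65 ± 0.72 and 3.58 ± 0.14 (SD, n = 3), a difference of 1.06 (SE 0.37), or 2.09-fold. It did not pass the test across all genes (limma, adjusted p = 0.278).

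H2-Ab1, the beta chain of I-A, read 4.77, 2.97 and 4.30 in tumour replicates 1, 2 and 3. In normal LEC it read 2.68, 2.89 and 2.66. Tumour replicates 1 and 3 were above the limit, whereas tumour replicate 2 lay close to the normal arrays. Normal LEC gave only a bound. The tumour mean of 4.01 ± 0.93 (SD, n = 3) was 1.49-fold above the mean limit of the normal arrays. That mean includes tumour replicate 2, which was below its own limit by 0.55, so the fold is not a firm minimum. The fitted difference was 1.27 (SE 0.47, adjusted p = 0.292, limma). Of the 3 probe sets of H2-Ab1 the one used was the only one above the limit, and the others differed by 0.35 and 0.13. Its suffix marks possible hybridization to other transcripts, and without such probe sets the gene's difference was 0.13.

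H2-Aa, the alpha chain of I-A and the partner of H2-Ab1, stood out on a single array. It read 2.60, 2.64 and 4.60 in tumour replicates 1, 2 and 3, against 2.55, 2.56 and 2.53 in normal LEC. Only tumour replicate 3 exceeded its limit, by 0.89. The tumour mean of 3.28 ± 1.14 (SD, n = 3) was below the limit of the normal arrays, so no fold is given, and the fitted difference was 0.73 (SE 0.56, adjusted p = 0.540, limma). Without tumour replicate 3 the difference was 0.069. The other 3 probe sets of H2-Aa were at or below the limit on all arrays, and all 3 were also highest in tumour replicate 3, at 2.81, 2.79 and 2.18. All 4 carry suffixes that mark possible hybridization to other transcripts. Tumour replicate 1, with the highest H2-Ab1, thus showed no H2-Aa above the limit.

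Cd74, the invariant chain, read 2.82, 3.59 and 3.99 in tumour replicates 1, 2 and 3. It read 2.52, 2.53 and 2.45 in normal LEC. It exceeded the limit in tumour replicates 2 and 3 only, by 0.069 and 0.28. The tumour mean of 3.47 ± 0.60 (SD, n = 3) was 1.03-fold above the mean limit of the normal arrays. It was below the limit of each tumour array (3.48, 3.53 and 3.71), so that fold is not a firm minimum. The fitted difference of 0.97 (SE 0.31) did not pass with arrays weighted equally (limma, adjusted p = 0.243) and passed narrowly with arrays weighted by quality (difference 1.05, adjusted p = 0.0494), where the estimate of the weights stopped before full convergence. With values below the limit raised to it the difference was 0.26, where a gene at or below the limit on all arrays reads 0.14. Its order over the arrays was nearest to that of H2-Eb1 (Pearson r = 0.97 over 6 arrays, as a description), and both were lower in tumour replicate 1 than in the other tumour arrays.

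**Figure D1:**
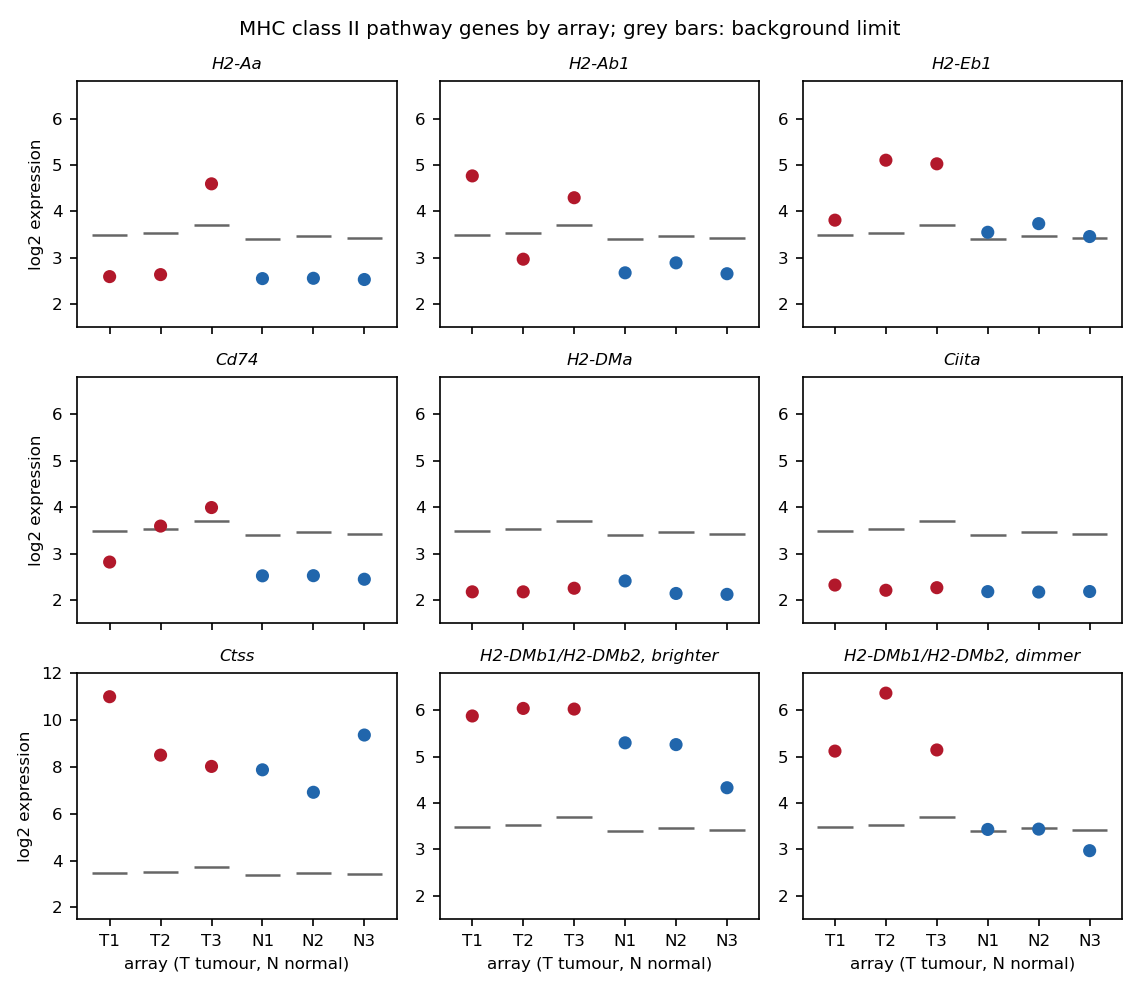
Log2 expression of each class II pathway gene on each array (T1 to T3, tumour LEC in red; N1 to N3, normal LEC in blue), with grey bars at the background limit of each array; the Ctss panel has a longer axis. H2-Aa exceeds its limit on T3 only, at 4.60, and H2-DMa and Ciita lie below the limits on all 6 arrays.

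The H2-DM pair was seen through its beta chain alone. H2-DMa, the alpha chain, was below the limit on all 6 arrays, at 2.18, 2.18 and 2.26 in tumour LEC and 2.41, 2.14 and 2.12 in normal LEC, with its highest value in normal replicate 1. Its second probe set read at most 2.19. No probe set is annotated to H2-DMb1 alone, so this gene has no value of its own. A pair of probe sets is annotated to both H2-DMb1 and H2-DMb2. The brighter read 5.88, 6.04 and 6.02 in tumour replicates 1, 2 and 3 and 5.30, 5.26 and 4.33 in the normal ones. The dimmer read 5.12, 6.37 and 5.14 in tumour LEC and 3.43, 3.44 and 2.97 in normal LEC. Both were above the limit on all tumour arrays, with no overlap between the groups. In normal LEC the brighter was above it on all 3 arrays. The dimmer exceeded it on 1 normal array only, normal replicate 1, by 0.029.

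In a fit over all probe sets past the filter the shared probe sets differed by 1.02 (SE 0.28, adjusted p = 0.236, limma) and 2.26 (SE 0.38, adjusted p = 0.104, limma). Neither passed, in a comparison where 0.222% of 27022 probe sets did. The difference of 2.26 was the largest among the probe sets of the 8 genes and H2-DMb2, against normal values at or near the limit. The 3 probe sets of H2-DMb2 alone lay near the limit, between 2.94 and 3.94, and differed by 0.064 to 0.31. How much of the shared signal comes from either gene was not tested.

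Ciita, the co-activator of the class II genes, was below the limit on all 6 arrays with each of its 3 probe sets. Its brightest read 2.32, 2.21 and 2.27 in tumour replicates 1, 2 and 3 and 2.18, 2.17 and 2.18 in normal LEC. The tumour values were higher on all arrays, as they were for 76.6% of the genes at background, and the difference was 0.087 (SE 0.048). Without the filter on low values, which Ciita did not pass, its adjusted p was 0.518 (limma). These values bound the signal and do not show that the transcript was missing. Nlrc5, which encodes the relative of CIITA that serves class I genes, was above the limit on 5 of the 6 arrays. It read 7.71, 7.73 and 8.52 in tumour LEC and 5.32, 2.89 and 5.15 in normal LEC. Its difference of 3.53 (SE 0.70) did not pass either (limma, adjusted p = 0.122).

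Ctss encodes cathepsin S, the protease that makes the last cuts in the invariant chain, and was the only bright gene of the 8. It read 10.99, 8.50 and 8.02 in tumour replicates 1, 2 and 3, against 7.87, 6.91 and 9.36 in normal replicates 1, 2 and 3. The groups overlapped, since normal replicate 3 exceeded tumour replicates 2 and 3. The means were 9.17 ± 1.60 and 8.05 ± 1.23 (SD, n = 3), and the difference of 1.12 (SE 0.99) was close to the spread within the groups (limma, adjusted p = 0.571). Without tumour replicate 1 it was 0.21, without normal replicate 2 it was 0.56, and without normal replicate 3 it was 1.78.

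None of the 5 genes that passed the filter (H2-Aa, H2-Ab1, H2-Eb1, Cd74 and Ctss) passed the test, and 0.216% of 12955 genes did. Cd74 and H2-Aa passed the filter through the tumour arrays, as their normal means lay below it. H2-DMa and Ciita did not pass in the fit without a filter, where 0.055% of 18193 genes did. Of the 7 measured genes, 6 had a positive difference and 5 separated the groups upwards, where 38.2% of all measured genes did. H2-Aa, H2-Ab1 and Cd74, or 3 of 7, were above the limit on some tumour array and on no normal array, as were 1.56% of all genes. The reverse held for 0 of the 7 and for 2.28% of all genes. Both shares pool genes at every level. H2-Aa counts through 1 tumour array, and H2-Ab1 and Cd74 through 2 each, Cd74 by 0.069 and 0.28 only. The 3 are therefore not read as an excess. The median difference over the 7 was 0.97, that of Cd74, against 0.050 over all measured genes. It was 0.44 with values raised to the limit, where a gene at or below the limit on all arrays reads 0.14.

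Probe by probe, the 7 genes have 15 probe sets of their own, of which 5 were above the limit on some array and 10 on none. The groups separated upwards for 12 of the 15, in a comparison where 45.5% of all probe sets did so. That share pools bright and dim probe sets. Counted by gene it was 76.6% at or below the limit on all arrays and 13.8% above it on some array. The 12 are therefore not read as an excess. Differences over 0.5 were confined to the brightest probe sets of H2-Aa, H2-Ab1, H2-Eb1, Cd74 and Ctss among these 15.

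**Figure D2:**
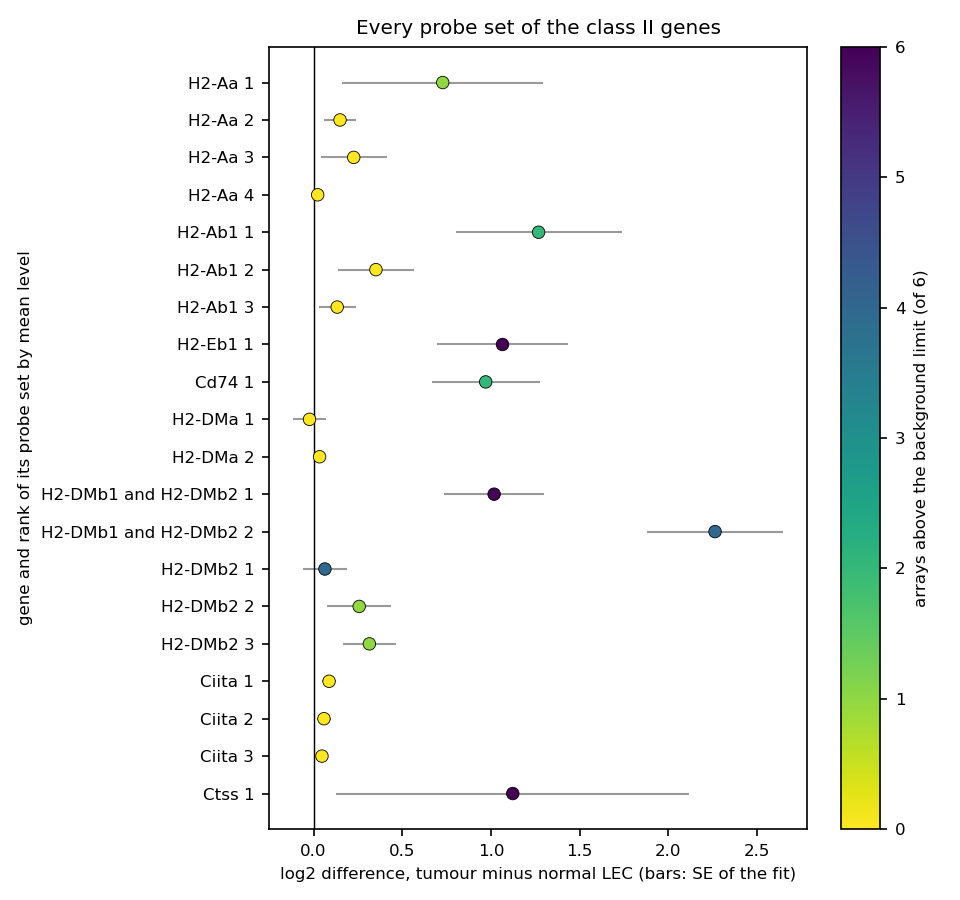
Log2 difference (tumour minus normal LEC) of every probe set of the genes, of H2-DMb2 and of both H2-DM beta genes together, with the SE of the fit as bars; numbers rank a gene's probe sets by mean level. Colour gives how many of the 6 arrays were above the background limit, and the yellow points, which are above it on none, lie between -0.023 and 0.35.

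The tumour arrays did not share a single class II profile. H2-Aa and Cd74 were highest in tumour replicate 3, H2-Eb1 and the dimmer shared H2-DM beta probe set in tumour replicate 2, and H2-Ab1 and Ctss in tumour replicate 1. The range over the tumour arrays was 2.00 for H2-Aa, 1.79 for H2-Ab1, 1.29 for H2-Eb1 and 1.17 for Cd74, and over the normal arrays 0.026, 0.23, 0.28 and 0.077. H2-Aa, H2-Ab1 and Cd74 were below the limit on all normal arrays, so their normal ranges do not measure the spread of the transcripts. Each was also below the limit on some tumour array, so their tumour ranges do not measure that spread either. For Ctss the range was 2.98 over the tumour arrays and 2.44 over the normal ones. Of the 7 measured genes, 5 were above the limit in tumour replicate 3, 3 each in tumour replicates 1 and 2, and 2 on each normal array.

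Professional antigen-presenting cells carry far more class II than endothelium, so their markers were read on the same arrays. Fewer such cells and less RNA per cell cannot be told apart in these bulk samples. Of 16 macrophage and leukocyte genes, 12 were above the limit in tumour replicate 1, 11 in tumour replicate 2, 8 in tumour replicate 3 and 10 or 11 on the normal arrays. Their summed level on the linear scale ran from 2228 to 8622 in tumour LEC and from 2104 to 5176 in normal LEC, with the top in tumour replicate 1. Ptprc, the leukocyte antigen CD45, read 5.92 there and at most 3.36 on the other arrays, at or below their limits. Itgam, Aif1, Cx3cr1 and Fcgr1 were at or below the limit on all arrays.

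Of the 12 macrophage and leukocyte genes above the limit on some array, 11 were highest among the tumour arrays in replicate 1 and 11 among the normal arrays in replicate 3. Ctss was highest on the same arrays. Examples are Cd68 (10.88 and 9.57), a lysosomal protein, Lyz2 (10.06 and 10.01) or lysozyme, and Laptm5 (10.78 and 8.12). The exceptions were Cd14, an endotoxin receptor subunit, which was highest in tumour replicate 3 and read 11.11 in tumour replicate 1 and 10.31 in tumour replicate 2, and Csf1r. Csf1r, the receptor for macrophage colony-stimulating factor, was highest in tumour replicate 1 at 8.58 but read 7.20 in normal replicate 1 and 6.82 in normal replicate 3. Their part in the Ctss values was not tested.

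H2-Eb1, Cd74 and H2-Aa were lower in tumour replicate 1 than in tumour replicate 3. Of the 12 markers 9 were at their lowest among the tumour arrays in replicate 3, such as Cd68 at 4.82 and Lyz2 at 5.48, and Cd14 was at its highest. H2-Ab1 alone of the chains was highest in tumour replicate 1. Of 8 measured dendritic cell genes, 6 were at or below the limit on all arrays, among them Itgax, or CD11c, at no more than 2.14, Flt3 and Xcr1. Zbtb46, a transcription factor that endothelium also expresses, read 4.76, 4.77 and 5.28 in tumour replicates 1, 2 and 3 and 4.66, 4.62 and 4.10 in the normal ones, with no overlap and its highest value in tumour replicate 3. Batf3 exceeded the limit in tumour replicate 2 only, at 3.66. Of 5 measured B cell genes, Cd79a, Cd79b, Pax5 and Blk were at or below the limit on all arrays, and Ms4a1 exceeded it by little in tumour replicate 3, at 3.91, and normal replicate 3, at 3.49. The markers of the lymphatic cells themselves were far above it, with Lyve1 at 13.65 to 14.91 and Prox1 at 7.73 to 8.92. The 6 genes of endothelium at large summed to 10128 to 13171 in tumour LEC and to 3700 to 8336 in normal LEC, with a median difference of 0.91. Of the 6, Eng (1.70, SE 0.38) and Cdh5 (1.01, SE 0.45) separated the groups upwards, as 13.8% of genes above the limit on some array did. Neither passed the test. The others overlapped between the groups, with Pecam1 at 8.08 to 8.86 in tumour LEC and 5.59 to 8.22 in normal LEC. Tek differed by 0.81 (SE 0.41), Tie1 by 0.022 (SE 0.62) and Kdr by -0.10 (SE 0.28). The 7 fibroblast genes summed to 108 to 146 in tumour LEC and to 4999 to 35478 in normal LEC, and the part of the endothelial and fibroblast genes in the class II values was not tested.

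**Figure D3:**
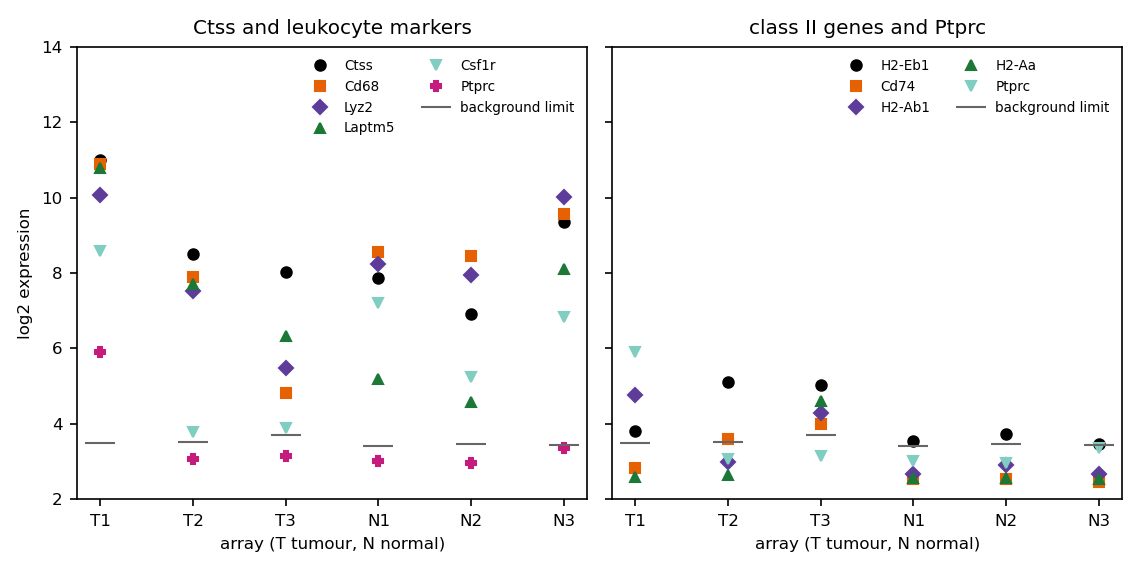
Log2 expression on each array (T1 to T3, tumour LEC; N1 to N3, normal LEC) of Ctss with macrophage and leukocyte markers on the left, and of H2-Eb1, Cd74, H2-Ab1 and H2-Aa with Ptprc on the right, with grey marks at the background limits. Ctss is highest on T1 (10.99) and N3 (9.36), as Cd68 and Laptm5 are, whereas H2-Eb1 and Cd74 are lowest on T1 among the tumour arrays.

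The rest of the class II machinery was taken from 4 lists of 32 genes, of which 30 are measured. None of the 23 past the filter passed the test (smallest adjusted p = 0.220, limma, against 0.216% of all genes called). Over the 30 measured genes the median difference was 0.049. The groups separated for 10 of the 30 upwards, 7 of them at or below the limit on all arrays, and for 1 downwards, where 38.2% and 8.27% of all genes did.

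Other class II chains and modulators were at background for the most part. H2-Oa and H2-Ob, which form an inhibitor of H2-DM, H2-Eb2, Cd83 and Marchf1, a ubiquitin ligase that removes class II from the surface, were at or below the limit on all arrays. The brightest probe set of H2-Ea, the alpha chain of I-E, read 5.61, 5.90 and 5.72 in tumour LEC and 5.54, 5.63 and 5.40 in normal LEC (difference 0.22, SE 0.13). It was above the limit on all arrays although this gene carries the deletion in C57BL/6, so a value above the limit does not by itself show an intact transcript, and what the probe set detects was not tested. Marchf8, another such ligase with many substrates, differed by 0.072 (SE 0.25).

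The factors that hold CIITA at the X and Y boxes were above the limit in both groups. All 7 genes of that list were above the limit, 3 with a positive and 4 with a negative difference, and none separated the groups. Rfx5, which binds the X box, read 8.44, 7.46 and 7.67 in tumour replicates 1, 2 and 3 and 8.25, 6.73 and 7.36 in the normal ones (difference 0.41, SE 0.46, limma adjusted p = 0.642). The members with the smallest p were Nfyc, a subunit of the Y box factor (-0.56, SE 0.23), Nfya of the same factor (0.60, SE 0.35) and Rfxank, a partner of Rfx5 (-0.27, SE 0.29).

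Among genes between interferon gamma and CIITA, Ifngr1, the ligand-binding receptor chain, read 8.94, 9.31 and 9.57 in tumour LEC and 8.71, 8.45 and 8.66 in normal LEC. The difference was 0.67 (SE 0.19, adjusted p = 0.220, limma). Jak2, a kinase of that receptor, differed by 0.65 (SE 0.23), with no overlap between the groups either, and Irf2 by 0.24 (SE 0.12). Irf1, a transcription factor that acts on the Ciita promoter, differed by 0.27 (SE 0.25) with overlapping groups. Ifng itself and Socs1 were at or below the limit on all arrays.

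All 7 genes of the endosomal list were above the limit, with 2 positive and 5 negative differences. Ctsl, a protease that takes the place of cathepsin S in some cells, differed by 0.026 (SE 0.24), a sign that turned in 4 of 16 alternative settings. Lgmn, which starts the trimming of the invariant chain, differed by -0.040 (SE 0.48), turning in 3. Ifi30, a reductase of endosomal antigens, read 7.55, 7.48 and 6.68 in tumour replicates 1, 2 and 3 and 9.37, 8.05 and 7.84 in the normal ones. It was lower on all tumour arrays (difference -1.18, SE 0.48, limma adjusted p = 0.323). Ctsh differed by -1.41 (SE 0.83) and Cst3, an inhibitor of these proteases, by 0.24 (SE 0.16), neither past the test.

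Costimulatory genes accompany class II on professional cells. Cd80 was at or below the limit in tumour LEC, at 3.46, 3.17 and 3.51, and above it in normal LEC, at 5.58, 3.64 and 4.41. Its bound in tumour LEC was at least 1.96-fold lower than the normal mean, and it did not pass (difference -1.16, SE 0.49, limma adjusted p = 0.341). Cd86 and Icosl were at or below the limit on all arrays. Cd40 was above it on all 6, with a difference of -0.053 (SE 0.33).

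Genes of class I presentation, some of them neighbours of the class II genes, were read for comparison. In the RefSeq gene order of chromosome 17, 12 protein-coding genes run from H2-DMa to H2-Eb2. Psmb9, Tap1, Psmb8 and Tap2, which cut and carry peptides for class I, lie between H2-DMb1 and H2-Ob. These 4 differed by 3.23 (SE 0.46), 2.17 (SE 0.49), 3.42 (SE 0.78) and 1.80 (SE 0.36), with no overlap between the groups. When all probe sets of a gene were averaged, Tap1 differed by 0.57 and Psmb8 by 2.33. Psmb9 and Tap2 kept identical values, as a gene with a single probe set must, so the averaging tests nothing for them. H2-D1, a class I heavy chain, then differed by 1.26 in place of 2.22. H2-K1, another heavy chain, and B2m rose, to 2.47 and 1.43. Over the 9 genes of a class I list the differences ran from 1.23 for B2m to 3.53 for Nlrc5, with a median of 2.17. All 9 were above the limit on some array and separated the groups upwards, where 13.8% of all such genes did. None passed the test (limma, smallest adjusted p = 0.0577, for H2-D1). The difference between both lists was not tested, the dimmer shared H2-DM beta probe set lies within the range of the class I genes, and most class II probe sets read at or near the background limit.

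**Figure D4:**
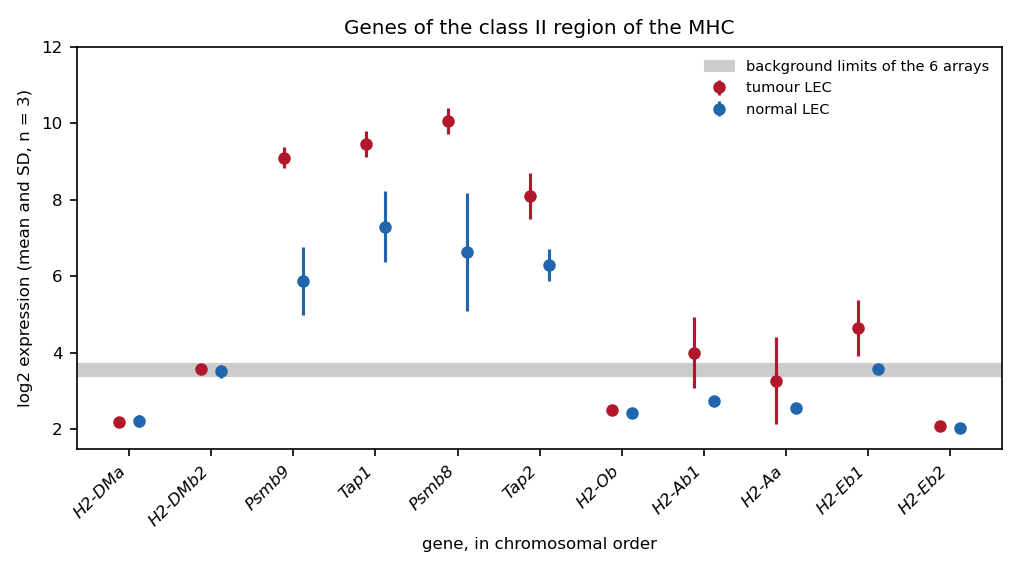
Mean log2 expression with SD (n = 3) in tumour LEC (red) and normal LEC (blue) of the measured genes from H2-DMa to H2-Eb2 in their order on chromosome 17, equally spaced, with the range of the 6 background limits as a grey band; H2-DMb1 has no probe set of its own. The groups stand apart, well above the band, at Psmb9, Tap1, Psmb8 and Tap2, while H2-DMa, H2-Ob and H2-Eb2 lie below the band in both groups.

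The genes most like the mean profile of the 5 class II pathway genes above the limit on some array were Msrb3 (Pearson r = 0.993), a methionine sulfoxide reductase, Ccnj (0.991), AI662270 (0.986), Fry (0.986) and Rerg (0.985). They were drawn from 3479 genes with an SD of at least 0.5, over 6 arrays that fall into 2 groups. Msrb3 read 11.56, 11.22 and 11.94 in tumour replicates 1, 2 and 3 and 10.40, 10.09 and 10.60 in the normal ones. In a comparison gene by gene, chosen after its values were seen, Ctss was most like Casp4 (0.992), Cmpk2 (0.989), Ddx60 (0.988), Rb1 (0.982) and Slfn5 (0.980). The nearest gene to H2-Ab1 was Slfn4 (0.988), to H2-Eb1 Nppb (0.986), to Cd74 Tpd52l1 (0.988) and to H2-Aa Ctsg (0.9999), and the profile of H2-Aa is set by tumour replicate 3. Among the 5 genes themselves, r of Ctss was -0.20 with H2-Aa, -0.15 with H2-Eb1, -0.074 with Cd74 and 0.56 with H2-Ab1. H2-Ab1 had r of 0.51 with H2-Aa, 0.46 with Cd74 and 0.31 with H2-Eb1. The remaining pairs were closer, with r of 0.97 for H2-Eb1 and Cd74, 0.79 for H2-Aa and Cd74 and 0.63 for H2-Aa and H2-Eb1.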

How the data were processed

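RNA of 6 samples was measured on Affymetrix arrays from 50 ng of total RNA. The authors deposited log2 expression values for 45101 probe sets. The submitters' processing notes name both RMA and GCRMA, but the method behind the deposited table is not given in the sources used here. Both correct background and normalize between arrays, and GCRMA draws dim signals towards a floor. Gene names came from the platform annotation that GEO holds, with symbols checked against RefSeq (0 changed). Of them 34945 have 1 gene, 932 several, 9160 none listed, and 64 are controls.

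Probe sets with a mean above the 40th percentile (2.71) were kept. The brightest probe set stood for its gene, which left 12955 genes, and tumour was compared with normal LEC in limma 3.58.1 (R 4.3.3, lmFit and eBayes), two-sided, with Benjamini-Hochberg adjustment over all genes and a threshold of 0.05. SEs are the moderated ones of that fit. A group at or below the limit on all its arrays gave a fold bound, the other group's mean over the mean limit. An exact permutation test of 3 against 3 arrays cannot go below 0.1 and was not run. The number of arrays limits the precision. The steps were tested on simulated data.

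The members and gene lists were chosen with earlier results of these data known. The rule named all members, up to 3 genes per pathway list, a few set genes and markers, and the 5 genes most like the members' mean profile. Lyz2, Laptm5, Cd14, Eng, Cdh5, Tek, Tie1 and Kdr were named after their values were seen. So were the dendritic and B cell genes other than Itgax and Cd79a, and Tap1, Tap2, Psmb8, B2m and Nlrc5. Promoter windows are from RefSeq. The 16 alternatives changed the filter, normalization, variance model, array weights, probe set choice, background and replicate block, or left out an array.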

Additional observations from a re-analysis of the deposited data

How the results depend on the processing

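No class II gene passed the test in 15 of the 16 alternatives. With array weights 1 did, Cd74 (difference 1.05, adjusted p = 0.0494, against a range of 0.0494 to 0.474 over its alternatives), in a weight estimate that stopped before full convergence. H2-Eb1 differed by 0.84 to 1.48, H2-Ab1 by 0.13 to 1.79, Ctss by 0.21 to 1.78 and H2-Aa, which has no value without its x_at and s_at probe sets, by 0.069 to 1.07, all without a change of sign. H2-DMa, at background, turned from -0.023 to 0.0055 with the mean of its probe sets and, leaving out single arrays, lay between -0.074 and 0.070. With values raised to the limit it was 0.14. Any gene at or below the limit on all arrays takes that value, which comes from the higher tumour limits alone. The median over the class II genes was 0.51 with array weights, 0.55 without x_at and s_at probe sets, 0.44 with values raised to the limit and 0.71 to 0.98 leaving out single arrays. No gene of the 4 pathway lists passed in any alternative, while of the class I genes followed H2-D1 passed in 6, H2-K1 in 3 and Psmb9 in 2. Over all genes 28 passed, against 10 with no filter, 97 with a 60th percentile filter, 385 with array weights, 57 with values raised to the limit and 4 to 81 leaving out single arrays (4 without tumour replicate 3, 6 without normal replicate 3, 9 and 11 without tumour replicates 1 and 2, 81 without normal replicate 1). The signs of Ctsl (-0.039 with median centring, -0.065 with array weights, -0.19 to 0.18 leaving out single arrays) and Lgmn (0.066 with array weights, -0.49 to 0.46 leaving out single arrays) turned, and the causes were not tested. Whether replicate numbers pair the samples was not settled. Deviations of same-numbered arrays correlated at 0.19, 0.33 and -0.0038. Tumour replicates 1 and 2 correlated best with the normal array of their own number, and tumour replicate 3 did not. With the number as a replicate block 46 genes passed, 0 of them class II genes. Signal near background limits the class II values other than those of Ctss and the brighter shared H2-DM beta probe set. The dimmer one was near background in normal LEC.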
